A study of Mus musculus with 8 samples.

Results

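Perineuronal nets are lattices of extracellular matrix that wrap the cell body and proximal dendrites of certain neurons, in cortex mainly the fast-spiking parvalbumin interneurons. Hyaluronan chains made at the cell surface carry chondroitin sulfate proteoglycans of the lectican family. Link proteins clamp the lecticans to hyaluronan, and tenascins tie the lecticans to each other. In the adult cortex the nets are known for restricting plasticity and for a part in the storage of fear memories, and astrocytes, oligodendrocyte precursors and neurons all contribute to them.

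The transcripts described here are those of 9 net genes, chosen by name: the lecticans Acan, Bcan, Ncan and Vcan, the link proteins Hapln1 and Hapln4, the tenascins Tnr and Tnc, and the receptor-type phosphatase Ptprz1. All 9 were found among the 22609 rows of the deposited gene table. The RNA came from B6.SJL mice at an age of 3 months. The medial prefrontal cortex was taken from the left and right anterior cingulate area, 1 h after a single session in a conditioning chamber. The fear conditioning group (4 samples) spent 3 min in the chamber and then received 2 foot shocks of 0.8 mA lasting 2 s each, 30 s apart, with a further 15 s in the chamber. The context control group (4 samples) was handled in the same way without shock. The series design calls the samples biological replicates, and the labels name no transgene or drug in either group. Untrained mice that never saw the chamber were not analysed here, so effects of the chamber itself are shared by both groups.

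The deposited values are read counts per gene, scaled by the authors with one factor for every library, called scaled reads below, and are not corrected for gene length. The 8 libraries held 1992452 to 3565356 gene reads. Excitatory neuron, inhibitory neuron, astrocyte, oligodendrocyte, microglial and vascular markers were all above 0 in every sample, when the labelled tissue was checked against them. The summed markers of astrocytes, oligodendrocyte precursors, oligodendrocytes, microglia, vessels, meninges and choroid plexus were each highest in context control replicate 3. Mixed tissue was sequenced, so fewer cells of a type and less RNA per cell cannot be told apart.

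No net gene passed the threshold between conditioned and control cortex. The background was equally empty: 0 of 14704 tested genes (0%) passed an adjusted p of 0.05 in limma, and 397 (2.70%) had an unadjusted p under 0.05. On the recovered reads 0 genes passed in edgeR (385 before adjustment) and 0 in DESeq2 (340 before adjustment). Of the 9 net genes, 2 were among those 397, Tnr on the higher side (as for 1.18% of all tested genes) and Hapln4 on the lower (as for 1.52%). The log2 change was below 0 for 7 of the 9 net genes, where 48.2% of all tested genes lay below 0. The median log2 change was -0.36 over the 9 net genes and 0.0095 over all tested genes. Medians of cell type markers were also below 0 for astrocytes (-0.214), microglia (-0.277), oligodendrocyte precursors (-0.33), vessels (-0.375) and oligodendrocytes (-0.493). They were -0.656 for meninges and -0.742 for choroid plexus, against 0.133 for excitatory and 0.008 for inhibitory neurons. The part of these cell types in the changes of the 9 net genes was not tested. The adjusted p was 0.9998 for each of the 9 in limma, with Benjamini-Hochberg adjustment over all tested genes. Group values are means with their SD over 4 samples, and log2 changes are on the log2(scaled reads + 1) scale with their 95% interval.

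**Figure D1:**
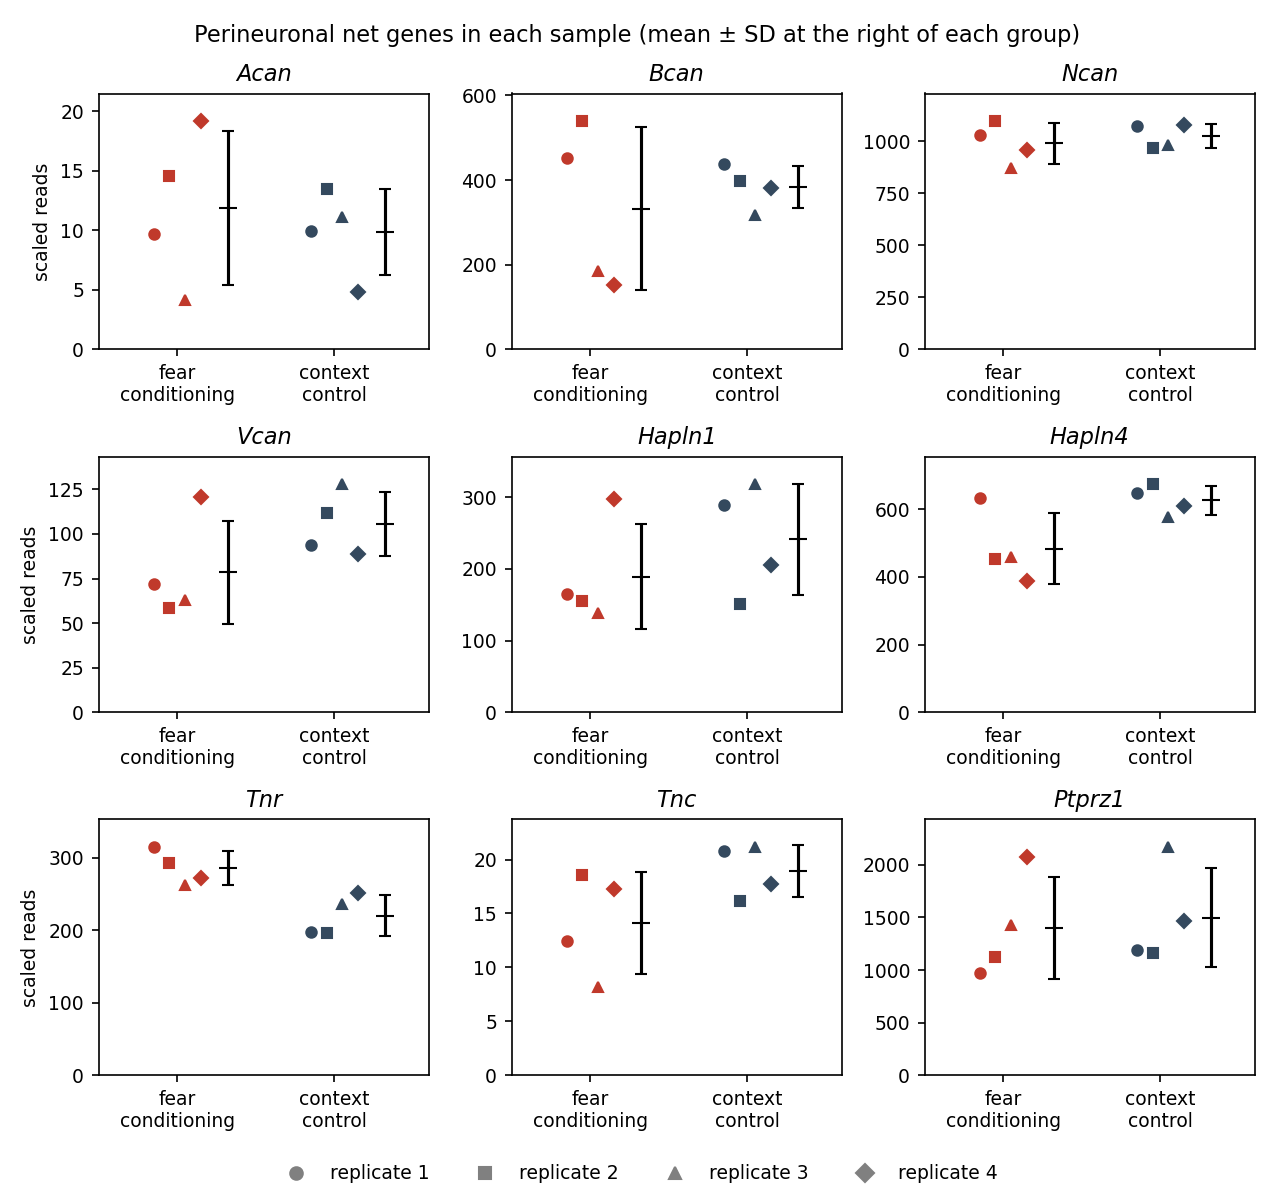
Scaled reads of each net gene in the 4 fear conditioning samples (red, left) and the 4 context control samples (dark blue, right), with marker shape for the replicate number and bars for mean ± SD. Every Tnr value after conditioning lies above every control value, while Bcan after conditioning splits into a high pair (replicates 1 and 2) and a low pair (replicates 3 and 4) on either side of the controls.

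The net genes spanned a wide range of abundance. Per kb of exon, Hapln4 averaged 123 ± 26.8 scaled reads after conditioning and 160 ± 11.01 in context controls, and Ncan 137 ± 13.5 after conditioning and 142 ± 8.01 in context controls. Ptprz1 (98.2 ± 34.3 after conditioning, 105 ± 32.9 in controls) and Bcan (81.8 ± 47.5 after conditioning, 94.3 ± 12.3 in controls) followed. The order of these 4 genes is not fixed by the data: each range over the 8 samples overlaps that of the next, and with the longest transcript in place of all exons Ptprz1 comes first. Hapln1 (32.0 ± 12.4 after conditioning, 40.9 ± 13.1 in controls) was above Tnr (22.2 ± 1.82 after conditioning, 17.1 ± 2.15 in controls) in 8 of 8 samples, although their ranges overlap. Tnr was above Vcan (5.43 ± 1.99 after conditioning, 7.29 ± 1.24 in controls) and Vcan above Tnc in every sample, with no overlap of ranges. Tnc (1.82 ± 0.611 after conditioning, 2.44 ± 0.314 in controls) was above Acan (1.59 ± 0.868 after conditioning, 1.32 ± 0.486 in controls) in 7 of 8 samples, with overlapping ranges.

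**Figure D2:**
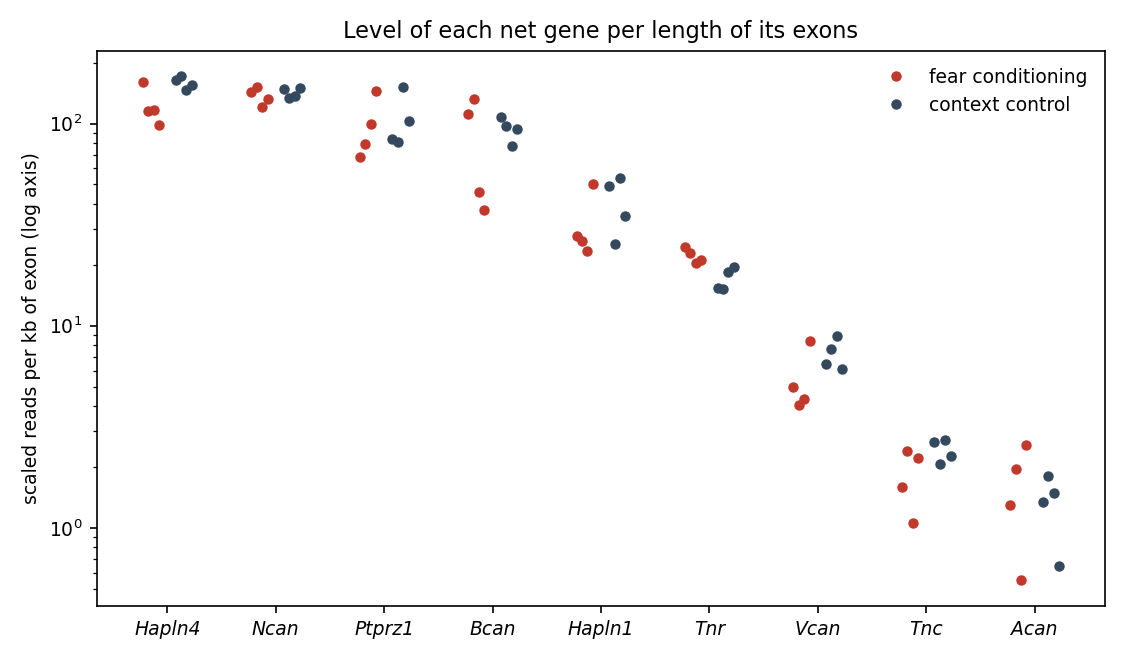
Scaled reads per kb of exon (log axis) for each net gene in the fear conditioning samples (red, left of each pair) and context control samples (dark blue, right of each pair), 1 point per sample. Genes are ordered by their mean over the 8 samples; after conditioning the mean is highest for Ncan, at 137 per kb, and lowest for Acan, at 1.59.

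Among the lecticans, Ncan, the neurocan gene of developing and adult brain, was the steadiest. It read 1030, 1097, 871.8 and 956.5 scaled reads in fear conditioning replicates 1 to 4, and 1071, 968.3, 983.1 and 1078 in context control replicates 1 to 4. The groups overlap, with replicate 2 of the conditioned group above every control and replicates 3 and 4 below every control. The log2 change was -0.06 (95% interval -0.33 to 0.22, unadjusted p = 0.671 by limma), so a change beyond 0.33 on the log2 scale in either direction lies outside the interval. Its spread within groups, a log2 SD of 0.12, was below that of all but 6.9% of the 709 genes of similar level, meaning a mean within 0.5 on the log2 scale.

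Bcan encodes brevican, a short lectican that exists as a secreted and a membrane-anchored form, which gene counts do not separate. Its scaled reads were 453.0, 539.9, 185.8 and 151.6 in fear conditioning replicates 1 to 4, against 436.8, 397.5, 316.6 and 381.4 in context control replicates 1 to 4. Replicates 1 and 2 of the conditioned group were above every control and replicates 3 and 4 below every control, so the group mean of 332.6 ± 193.0 describes none of its samples, while controls averaged 383.1 ± 50.06. This gave a log2 change of -0.40 (95% interval -1.15 to 0.35, unadjusted p = 0.272). Without fear conditioning replicate 4 it was -0.09, without fear conditioning replicate 3 it was -0.19, and without fear conditioning replicate 2 it was -0.70. The log2 SD within groups of 0.66 exceeded that of 96.8% of the 1901 genes of similar level, whose median was 0.26, and counting error alone gives 0.09. Astrocytes make brevican, and 12 of 12 astrocyte markers had a log2 change below 0, with a median of -0.21. Their summed scaled reads were 18570, 19100, 19770 and 19550 in fear conditioning replicates 1 to 4 and ranged from 17930 to 23980 in controls; their part in the Bcan values was not tested.

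Vcan encodes versican, a large lectican that oligodendrocyte precursors make in abundance. It read 71.81, 58.36, 62.86 and 120.9 scaled reads in fear conditioning replicates 1 to 4, and 93.85, 111.5, 128.1 and 88.52 in context control replicates 1 to 4. Of the conditioned samples, 3 lay below every control and replicate 4 lay within the control range. The log2 change was -0.47 (95% interval -1.03 to 0.09, unadjusted p = 0.0926), and with each sample left out in turn it lay between -0.35 (without fear conditioning replicate 2, unadjusted p = 0.218) and -0.69 (without fear conditioning replicate 4, unadjusted p = 0.00819, adjusted p = 0.8284 in limma). Summed oligodendrocyte precursor markers ranged from 910 to 1195 after conditioning and from 1035 to 1517 in controls. Of the 10 tested precursor markers, 9 had a log2 change below 0, with a median of -0.33; their part in the Vcan values was not tested.

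Acan encodes aggrecan, the lectican by which mature nets are usually recognised. It was near the floor of these libraries, with 3 to 20 reads in a sample and 77 in all. Scaled reads were 9.667, 14.59, 4.099 and 19.19 in fear conditioning replicates 1 to 4, against 9.966, 13.43, 11.09 and 4.828 in context control replicates 1 to 4. The groups overlap, and the lowest and the highest value both came from conditioned samples. The 3 reads of fear conditioning replicate 3 have an exact Poisson 95% interval of 0.619 to 8.77 reads, and the 20 reads of replicate 4 one of 12.2 to 30.9 reads, which covers counting error only. The log2 change of 0.15 has a 95% interval from -0.94 to 1.25 and could not be narrowed at this depth, and its sign turned without fear conditioning replicate 4 (-0.12) or context control replicate 4 (-0.12).

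Within the lectican family, measured per kb of exon, Ncan made up 62.8 ± 10.7% after conditioning and 58.1 ± 2.53% in context controls, and Bcan 33.9 ± 12.2% after conditioning and 38.3 ± 2.85% in context controls. The Bcan share was 42.7, 45.6, 26.6 and 20.6% in fear conditioning replicates 1 to 4 and 34.6 to 40.7% in context controls. In replicates 3 and 4 of the conditioned group the family was thus more neurocan by transcript, at 70.5 and 73.4%, than in any control, where the highest share was 60.8%. Vcan and Acan stayed minor in every sample, at no more than 4.61 and 1.42%.

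The link proteins share one fold, and each is encoded next to a lectican gene in the mouse genome. Hapln1 is the coding gene next to Vcan and Hapln4 the one next to Ncan, in the RefSeq annotation of GRCm38. Hapln4, which encodes the brain-restricted link protein known as Bral2, had 633.9, 453.6, 460.5 and 387.6 scaled reads in fear conditioning replicates 1 to 4, against 647.8, 675.5, 576.8 and 610.0 in context control replicates 1 to 4. Replicates 2, 3 and 4 of the conditioned group were below every control, and replicate 1 lay inside the control range. The mean was 483.9 ± 105.2 after conditioning and 627.5 ± 43.21 in context controls, a log2 change of -0.40 (95% interval -0.75 to -0.04, unadjusted p = 0.0308 by limma, adjusted p = 0.9998). An exact permutation test over the 70 assignments of the samples gave p = 0.0857, two-sided. Ncan beside it had a log2 change of -0.06, as given above, and the pair was only weakly correlated over the 8 samples (Pearson r = 0.345, exact permutation p = 0.403; Spearman rho = 0.14, exact permutation p = 0.752).

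Hapln1, the cartilage link protein gene that net-bearing neurons also express, had 164.3, 155.2, 138.0 and 297.4 scaled reads in fear conditioning replicates 1 to 4, against 289.8, 150.4, 318.6 and 206.0 in context control replicates 1 to 4. The groups overlap. Replicate 4 stood well above the other conditioned samples, and 2 of the controls reached the same level. Between the groups the log2 change was -0.36 (95% interval -0.97 to 0.25, unadjusted p = 0.221). It was -0.21 without context control replicate 3 (unadjusted p = 0.498), -0.23 without fear conditioning replicate 3 and -0.57 without context control replicate 2. Without fear conditioning replicate 4 it was -0.60 (unadjusted p = 0.0268, adjusted p = 0.8284 in limma). Per kb of exon, Hapln4 made up 79.1 ± 8.72% of the pair after conditioning and 79.7 ± 6.02% in context controls.

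Tnr, encoding tenascin-R, a matrix protein of oligodendrocyte lineage cells and some interneurons that cross-links lecticans, was the one net gene whose groups did not overlap. It read 314.9, 293.1, 262.4 and 271.5 scaled reads in fear conditioning replicates 1 to 4, and 197.7, 196.1, 236.0 and 251.1 in context control replicates 1 to 4. The mean was 285.5 ± 23.46 after conditioning and 220.2 ± 27.63 in context controls, a fold of 1.30 and a log2 change of 0.38 (95% interval 0.04 to 0.72, unadjusted p = 0.0311 by limma, adjusted p = 0.9998). The exact permutation p was 0.0286, two-sided, the smallest that 4 against 4 samples can give. Over all tested genes the groups were separated for 282 (1.92%), 144 of them higher after conditioning (0.979%), so a separation of this kind was found for 1 of 9 net genes beside that background, and Tnr ranked 221 of 14704 by p. With each sample left out in turn, the change was between 0.325 and 0.444. Its unadjusted p in limma then lay between 0.0218 (without context control replicate 4) and 0.0913 (without context control replicate 1). Tnr was higher while 9 of 10 oligodendrocyte precursor markers and 10 of 10 oligodendrocyte markers had a log2 change below 0. The part of these cells in the Tnr values was not tested. Summed oligodendrocyte markers ranged from 2698 to 4367 after conditioning and from 2424 to 9651 in context controls.

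Tnc encodes tenascin-C, the embryonic and injury-associated tenascin, and its reads were few, 6 to 25 in a sample. It had 12.43, 18.57, 8.199 and 17.27 scaled reads in fear conditioning replicates 1 to 4, against 20.76, 16.12, 21.18 and 17.70 in context control replicates 1 to 4. All 4 conditioned samples were below the control median, though the groups overlap. The log2 change was -0.45 (95% interval -1.24 to 0.34, unadjusted p = 0.237), and -0.23 without fear conditioning replicate 3. Tnr and Tnc therefore lay on opposite sides, and their proportion separated the groups: per kb of exon, Tnr made up 93.9, 90.5, 95.1 and 90.5% of the tenascin pair in fear conditioning replicates 1 to 4, and 85.2, 88.0, 87.1 and 89.5% in context control replicates 1 to 4. This proportion was computed after the values of both genes had been seen and rests on the same values, so it is given as a description with no test of its own. A factor per sample cancels in it, so it does not depend on how the libraries were scaled.

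**Figure D3:**
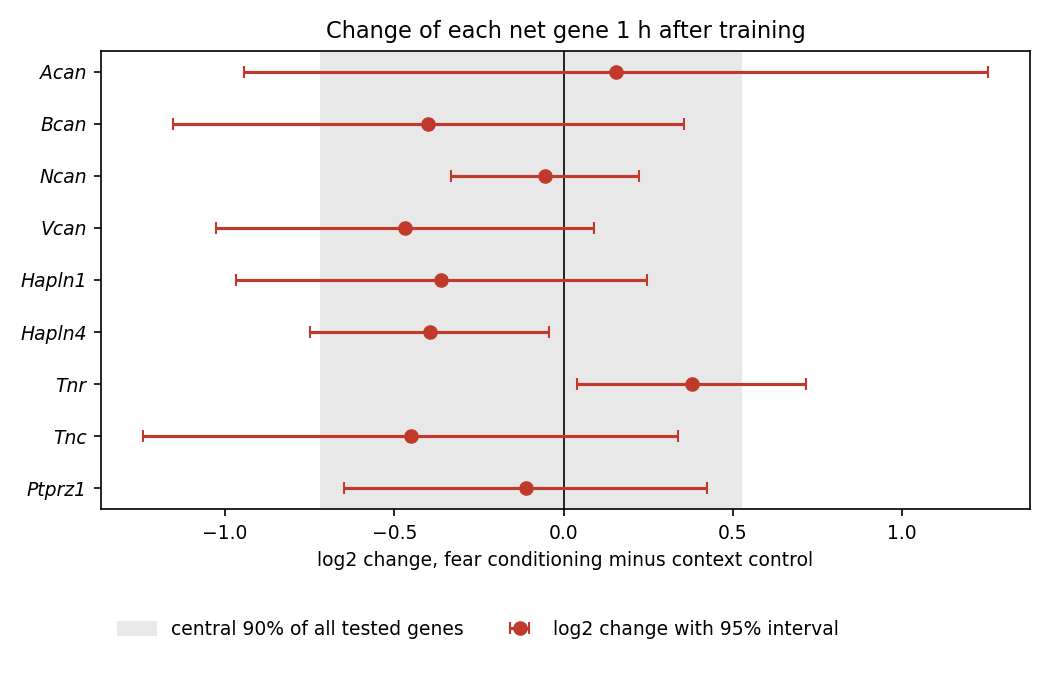
Log2 change (fear conditioning minus context control) of each net gene with its 95% interval from limma, over the band that holds the central 90% of all tested genes, from -0.72 to 0.52. All 9 points lie inside the band, and the intervals of Hapln4 and Tnr alone exclude 0.

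Ptprz1 encodes a receptor phosphatase of astrocytes and oligodendrocyte precursors, whose secreted splice form, phosphacan, is itself a net proteoglycan that binds tenascins. Gene counts do not separate the forms. It was the net gene with most reads, 703 to 2164 in a sample. It read 970.8, 1125, 1424 and 2076 scaled reads in fear conditioning replicates 1 to 4, against 1195, 1159, 2171 and 1465 in context control replicates 1 to 4. The groups overlap widely, and each has a single sample far above its others. Its log2 change of -0.11 (95% interval -0.65 to 0.42, unadjusted p = 0.658) turned to 0.04 without fear conditioning replicate 1 and 0.08 without context control replicate 3. Its log2 SD within groups, 0.45, exceeded that of 94.5% of the 457 genes of similar level.

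Fear conditioning replicate 4 and context control replicate 3 had the highest values of Ptprz1, Vcan and Hapln1 of the 8 samples. Summed excitatory neuron markers were lowest in the same samples. They were at 8857 in fear conditioning replicate 4 and 9243 in context control replicate 3, against 9945 to 13580 in the others. Summed inhibitory neuron markers went the other way, at 4182 and 3957 in these samples in the same order, against 3537 to 3922 in the others. The part of neuronal content in the Ptprz1, Vcan and Hapln1 values was not tested. The 9 genes did not move as one. Of the 36 pairs of net genes, 21 were positively and 15 negatively correlated over the 8 samples, with a median Pearson r of 0.15, and none passed after adjustment (lowest adjusted exact permutation p = 0.393). The pairs with the smallest p were Bcan with Ncan (Pearson r = 0.79, exact permutation p = 0.0148; Spearman rho = 0.76, exact permutation p = 0.0368; r = 0.65 without the 2 samples farthest from the median of Bcan) and Hapln1 with Tnc (r = 0.69, exact permutation p = 0.0431; rho = 0.71, exact permutation p = 0.0576; r = 0.66 without the 2 farthest samples). Bcan with Ptprz1 ran in opposite directions (r = -0.69, exact permutation p = 0.0549; rho = -0.83, exact permutation p = 0.0154; r = -0.83 without the 2 farthest samples). The neighbours Vcan and Hapln1 had r = 0.73 (exact permutation p = 0.0555; rho = 0.71, exact permutation p = 0.0576; r = 0.55 without the 2 farthest samples). The adjusted p of r was 0.393 for each of these 4 pairs, and of rho 0.518.

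**Figure D4:**
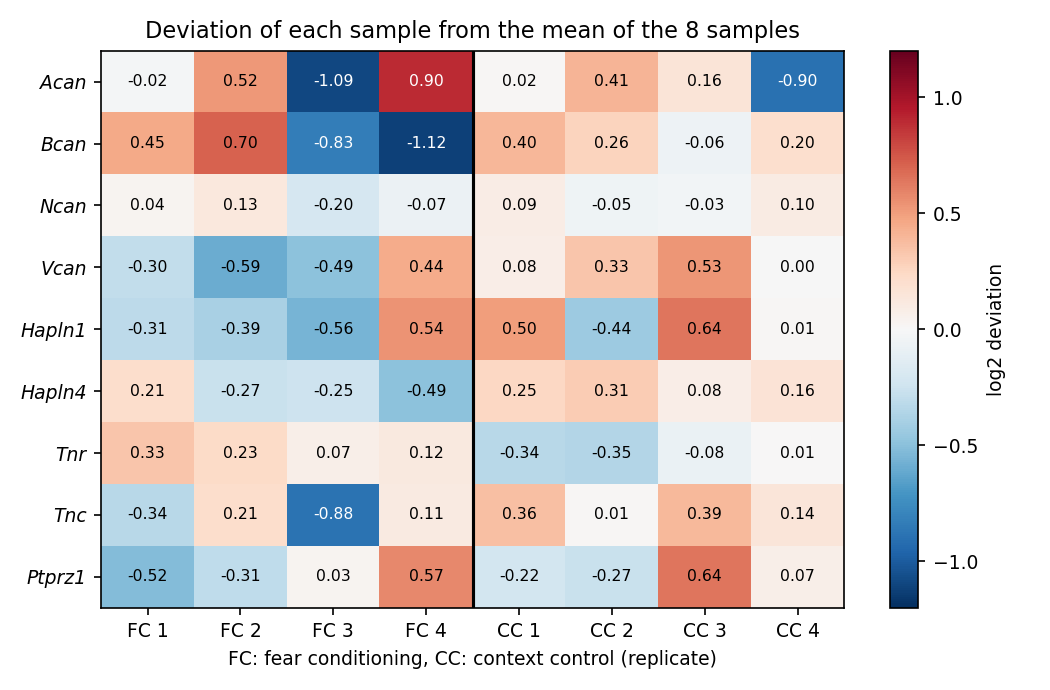
Deviation of each sample from the mean of the 8 samples on the log2(scaled reads + 1) scale, for each net gene (rows) in the fear conditioning (FC, left) and context control (CC, right) samples. Bcan is at -0.83 and -1.12 in FC 3 and FC 4, and Ptprz1 is highest in FC 4 (0.57) and CC 3 (0.64).

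The genes with a mean of at least 100 scaled reads whose pattern over the 8 samples was most like that of Acan were Dnttip2 (Pearson r = 0.94, rho = 0.83), Ypel2 (r = 0.92, rho = 0.67) and Cntn3 (r = 0.92, rho = 0.93). They are the top of 6526 candidates matched to a gene of 77 reads over 8 samples, and are given as a description only.

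The machinery that builds, modifies and reads the nets likewise had no member past the threshold. Of 21 tested genes for chondroitin sulfate synthesis and sulfation, the sugar chains of the lecticans, 11 had a log2 change above 0 and 10 below (median 0.06, against 0.0095 for all tested genes, and between -0.039 and 0.046 with 1 sample left out), and Chst13 was at 0 in every sample. The members with the smallest p were Chst3, the 6-O-sulfotransferase, and Chsy1, a chain polymerase. Chst3 was at 10.80 ± 6.826 scaled reads after conditioning and 20.51 ± 6.196 in context controls (log2 change -1.01, unadjusted p = 0.0482 by limma). The Chst3 values rest on few reads, since 1 read is worth 0.83 to 1.61 scaled reads in these libraries. Chsy1 was at 67.56 ± 16.97 after conditioning and 89.41 ± 13.86 in context controls. The summed scaled reads of the list were 2642 to 2781 after conditioning and 2423 to 2609 in context controls, which do not overlap. This sum is set mainly by its abundant members, while the members counted singly were balanced around 0. The sums of all the other lists, of genes and of cell type markers, overlapped between the groups. The separation of this sum is given as a description with no test of its own.

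Of 10 tested genes of hyaluronan synthesis, breakdown and binding, 5 lay on each side of 0. Hyal1, a lysosomal hyaluronidase, read 11.05, 5.306, 8.199 and 10.55 scaled reads in fear conditioning replicates 1 to 4 and 14.95, 22.83, 25.21 and 24.14 in context control replicates 1 to 4. Its groups did not overlap, as for 138 genes (0.939%) that were separated on the lower side over the whole table. The log2 change was -1.24 (standard error 0.38, unadjusted p = 0.00633, adjusted p = 0.9998 in limma). The Hyal1 values rest on few reads, since 1 read is worth 0.83 to 1.61 scaled reads in these libraries. Tmem2, the older symbol of the cell surface hyaluronidase gene Cemip2, was at 75.77 ± 11.27 after conditioning and 55.90 ± 12.22 in context controls (log2 change 0.45, unadjusted p = 0.09).

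Of 23 tested matrix proteases and their inhibitors, 10 lay above 0 and 13 below (median -0.05), and Mmp3 was at 0 in every sample. Adamts4, an aggrecanase that cleaves lecticans, had 6.905, 6.632, 1.366 and 6.716 scaled reads in fear conditioning replicates 1 to 4, against 19.10, 14.77, 48.40 and 3.219 in context control replicates 1 to 4. The groups overlap through context control replicate 4 (log2 change -1.48, unadjusted p = 0.054), and the highest value came from context control replicate 3, where summed oligodendrocyte markers were also highest, at 9651. Timp4, a metalloproteinase inhibitor, was at 69.36 ± 18.30 after conditioning and 97.70 ± 21.45 in context controls.

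Of 21 tested receptors, ligands and surface proteins grouped with the nets, 15 lay above 0 and 6 below (median 0.11). The sign of that median turned without fear conditioning replicate 1 (-0.045) or replicate 2 (-0.007), and it was 0.245 without replicate 4. It was 0.025 without context control replicate 3, 0.021 without context control replicate 4 and 0.207 with array weights. Plxna4, a plexin through which semaphorin signals are received, read 570.3, 558.4, 567.1 and 651.4 scaled reads in fear conditioning replicates 1 to 4. It read 488.3, 509.0, 540.5 and 468.3 in context control replicates 1 to 4. Its groups did not overlap (log2 change 0.22, unadjusted p = 0.107 by limma), as for 144 genes (0.979%) separated on the higher side over the whole table. Cntn5, a contactin, was at 37.77 ± 6.952 after conditioning and 26.85 ± 10.49 in context controls. Of 21 other matrix proteoglycans and related proteins, 8 lay above 0 and 13 below (median -0.09). Nid1, encoding the basement membrane protein nidogen, was at 42.51 ± 21.12 after conditioning and 72.02 ± 17.56 in context controls (log2 change -0.85, unadjusted p = 0.0308 by limma). The log2 change was also below 0 for 10 of 10 endothelial and mural markers. Dcn, the decorin gene, was at 66.20 ± 36.75 after conditioning and 112.8 ± 64.05 in context controls. For 10 of 10 meningeal fibroblast markers the log2 change was likewise below 0. The part of these cell types in the Nid1 and Dcn values was not tested.

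Markers of the fast-spiking interneurons that carry most cortical nets were balanced, with 7 of 12 above 0 and 5 below (median 0.02). Their summed scaled reads were 3187 to 3869 after conditioning and 2916 to 3669 in context controls. Erbb4, a neuregulin receptor of interneurons, was at 121.5 ± 32.60 after conditioning and 75.01 ± 32.08 in context controls (log2 change 0.74, unadjusted p = 0.0301, adjusted p = 0.9998 in limma), and Cox6a2, a respiratory chain subunit gene enriched in these cells, at 5.651 ± 5.199 after conditioning and 7.910 ± 3.971 in context controls.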

How the data were processed

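The authors deposited 1 table of 22609 gene symbols for 8 samples, named FPKM. Its values are a scaled count signal: in each column 100% of nonzero values were whole multiples of the column's smallest value, with a tolerance of 0.01 read. The deposited signal is therefore read counts per gene that the authors scaled per library, without length correction. TopHat and HTSeq are named without versions, and the human build hg19 beside mouse symbols, per the submitters' processing notes; no coordinates are printed. How the factor was set and whether libraries were stranded is not given in the sources used here. Overlapping genes cannot be separated.

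Genes with a mean of at least 1 (14704) were tested on log2(value + 1) in limma 3.58.1 under R 4.3.3 (eBayes, trend on), by a two-sided test. Benjamini-Hochberg adjusted p-values were held against 0.05. The code was tested on simulated data. edgeR 4.0.16 (quasi-likelihood) and DESeq2 1.42.0 were run on recovered reads as alternatives, with TMM scaling, quantile normalization, array weights, other filters and a pseudocount of 0.1. Lengths are GENCODE vM21 exon unions. Lists matched by current or, for 2 of 193 genes, older symbols. The 9 genes, the lists and the naming rule (all 9, and 2 per list by smallest p) were chosen with earlier results of these data known. Same-numbered samples deviated together (correlations of 0.558, 0.603, 0.32 and 0.191 for numbers 1 to 4, over genes with a mean of at least 100), so the replicate number was also run as a block; the labels do not say what it marks, and only number 2 correlated best with itself.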

Additional observations from a re-analysis of the deposited data

Results flagged for a closer look

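In groups of 4, a sample was called apart where its gap to the nearest other, over the group's range, passed Dixon's 95% critical value. Of 60 groups checked, 4 met this, and chance alone gives about 1 in 20. Hapln1 read 297.4 in fear conditioning replicate 4, against 138.0 to 164.3 in the other conditioned samples. Adamts4 read 1.366 in fear conditioning replicate 3, against 6.632 to 6.905 in the others, a difference of a few reads. Plxna4 read 651.4 in fear conditioning replicate 4, against 558.4 to 570.3. Summed oligodendrocyte markers were 2698 in fear conditioning replicate 2, against 4121 to 4367.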

How the results depend on the processing

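With a pseudocount of 0.1, no filter, a mean of at least 10, quantile normalization, TMM scaling, edgeR, DESeq2, array weights and the replicate block, 0 genes passed the threshold, as with the settings described. Leaving out each sample in turn gave 0 to 1 genes, none of them a net gene, with the 1 call made without fear conditioning replicate 4. The genes at an unadjusted p under 0.05 numbered 397 in limma, 385 in edgeR, 340 in DESeq2, 823 with array weights, 802 without fear conditioning replicate 4 and 251 without fear conditioning replicate 3. With the replicate number as a block there were 594, the changes stayed at 0.378 for Tnr (unadjusted p = 0.0329) and -0.395 for Hapln4 (unadjusted p = 0.0166, adjusted p = 0.997 in limma), and no call changed.

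Bcan, Vcan, Hapln1, Hapln4, Tnr and Tnc kept their direction in all 17 alternatives. Tnr was at an unadjusted p under 0.05 in 13 of the 17 and Hapln4 in 11. With one sample left out at a time, the log2 change lay between -0.119 and 0.543 for Acan, -0.107 and 0.003 for Ncan, and -0.322 and 0.082 for Ptprz1, so these 3 changed sign. Their exact permutation p lay between 0.286 and 1.0, 0.229 and 1.0, and 0.229 and 0.971 in the same order. That of Tnr was 0.0571 each time, which is the smallest p that 3 against 4 samples allow. With groups that do not overlap, leaving out any sample could give no other value, so these runs add nothing to the separation itself. The Bcan change was -0.22 in edgeR and -0.17 with array weights, against -0.40 in limma; the cause was not tested. With the longest transcript as the length, a choice made after seeing the data, the Tnr share of the tenascin pair was 5.18 percentage points higher after conditioning, against 5.03 with exon unions. With one sample left out at a time, the median log2 change lay between -0.18 and 0.129 for hyaluronan metabolism, -0.174 and -0.008 for matrix proteases and inhibitors, -0.204 and -0.031 for other matrix proteins, and -0.054 and 0.099 for fast-spiking markers.

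Among the net genes, depth limits Acan and Tnc most. Counting error alone gives a log2 SD of 0.56 and 0.42 per sample for them, against 0.05 for Ncan. Of the genes named from the lists, Hyal1, Chst3 and Adamts4 also rest on few reads.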
